A study of Zea mays with 6 samples.

Results

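The MYB transcription factors of the maize ovary were described from RNA sequencing of wild-type (WT) ovaries and of ovaries whose carpels had not fused completely (*ifc*). The members were the 82 rows, each with its own gene identifier, whose transcription factor family was given as MYB, out of 25368 rows in the deposited expression table. The 63 rows of the separate family MYB_related were not members. RNA came from unpollinated ovaries of the inbred line Yu-A474 grown in the field without stress, and 3 libraries were made for each phenotype. The labels give the *ifc* libraries the genotype IFC mutant and the WT libraries the genotype wild type, whereas the methods state that *ifc* and WT ovaries stood on the same ears of one line in which the trait is only partly penetrant. The groups therefore compare ovary phenotypes of one background and not plants of different known genotype. Neither phenotype received a treatment, per the labels.

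The MYB domain is a DNA-binding domain built of imperfect helix-turn-helix repeats. Most plant members carry a pair of such repeats, named R2 and R3, and act as activators or repressors in phenylpropanoid synthesis, the secondary cell wall, epidermal cell fate, hormone and stress responses, and the growth of floral organs. Roles given below are those known from *Arabidopsis thaliana* unless maize is named, and each member was placed by the *Arabidopsis* match listed in the table, which is a best match and not proof of a shared role.

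The label R2R3 held for most of the rows but not for all of them. Of the 82 members, 72 had a match with a numbered R2R3 MYB symbol. A further 3 members were matched to MYB3R genes, which carry an additional repeat, 1 to MYB4R1, and 1 to CDC5, a spliceosome-associated protein with MYB repeats. The remaining 5 members had a match with no symbol. The description column named the R2R3 type for 8 members, and 80 members were annotated with DNA binding. The members lay on all 10 chromosomes.

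The authors pooled the exonic reads of the 3 libraries of each phenotype, so the table holds 1 value for *ifc* and 1 for WT. The unit is FPKM, a fragment count scaled by transcript length and by library size. The authors state quartile normalization for this scaling, so the values were not scaled by the mapped total alone. No spread between samples and no read number comes with these values, and a ratio between them has no replicate check here. The table's own test columns were not used, so no p-value stands beside a ratio. The word called is used below only for size: a fold above 1.5 between the phenotypes and an FPKM above 2 in at least 1 of them. The list of carpel and ovule markers found 19 rows, all above 2 FPKM. They ran from an INO match at 2.50 FPKM in *ifc* and 4.51 in WT to a SEP3 match at 695 and 754 FPKM. Many of the rows were SEP and AG matches, and no row was found under HEC1, HEC2, HEC3, SHP1 or SEP1. Of these 19 rows, 18 were lower in *ifc*, with a median log2 ratio of -0.12 after 1 FPKM was added to each value, and 1 was called lower. Over all 21093 rows above 2 FPKM, 54.1% were lower, the median was -0.02, and 2.55% were called lower. Anther markers were near the bottom of the table once 3 methionine synthase rows that share the symbol MS1 were set aside, with a summed level of 1.12 FPKM in *ifc* and 0.794 in WT over 2 rows. GRMZM2G173633 among these rows is itself a MYB member, and the other row is an AMS match at 0.452 FPKM in *ifc* and 0.119 in WT. The leaf photosynthesis markers summed to 129 FPKM in *ifc* and 142 in WT over 5 rows, and the xylem markers to 32.1 and 33.1 FPKM over 6 rows. Whether the make-up of the ovaries in cell types had a part in the ratios below was not tested, and more cells of a type and more RNA per cell cannot be told apart in such bulk samples.

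All directions, those of the markers above included, are those of the authors' quartile-normalized scaling of the pooled values. A single extreme row, GRMZM2G070931, was listed at 877143 FPKM in WT and at 0 in *ifc*, which is 55.6% of the summed WT values. If both phenotypes were set to the same total FPKM, every log2 ratio would shift by 1.13 and all 82 members would be higher in *ifc*, including the 39 that were lower. Without that one row the same step would shift the log2 ratios by -0.05 and would turn the direction of 5 members. Dividing the ratios by their median over the rows above 2 FPKM would shift them by 0.02 and turn 4 members.

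MYB levels were uneven. The mean of both phenotypes ran from 0.408 to 203.5 FPKM over the members, with a median of 4.01 FPKM against 9.47 FPKM over all rows of the table. A level above 2 FPKM in at least 1 phenotype was found for 57 members, and 25 members stayed at or under it in both. The 5 members with the highest mean held 59.2% of the summed FPKM of the family in *ifc* and 56.8% in WT. For the 10 highest these shares were 71.8% and 70.0%. No member was listed at 0 in either phenotype.

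**Figure D1:**
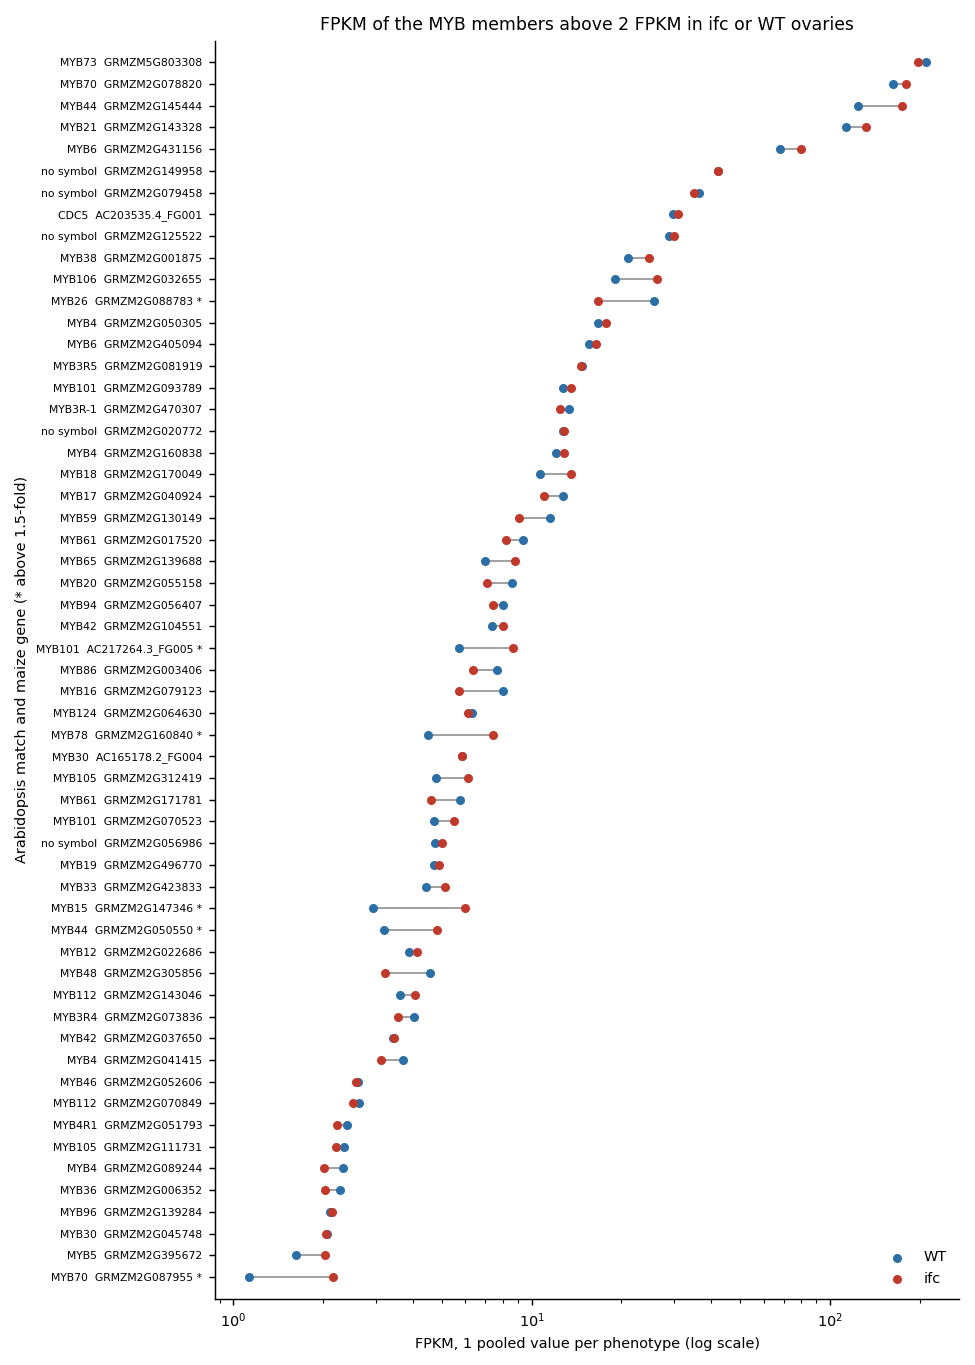
FPKM of the 57 members above 2 FPKM in at least 1 phenotype, on a log axis, with WT in blue and *ifc* in red; each point is 1 value pooled over 3 libraries, so there are no error bars. Names on the left give the *Arabidopsis* match and the maize gene, a star marks a ratio above 1.5-fold, and the starred genes lie outside the 10 highest members.

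None of the most abundant MYBs passed the fold limit. The highest was GRMZM5G803308, matched to MYB73, at 198 FPKM in *ifc* and 209 FPKM in WT. Next came GRMZM2G078820, matched to MYB70, at 180.1 FPKM in *ifc* and 162 FPKM in WT. GRMZM2G145444, matched to MYB44, measured 175 FPKM in *ifc* and 124 FPKM in WT, which at 1.41-fold was the widest ratio of the 10 highest members. All 3 belong to the MYB44-like group, whose *Arabidopsis* members act in abscisic acid and stress responses. Of the 10 highest members, 7 had the higher value in *ifc* and 0 were called, where 4.13% of all rows above 2 FPKM were called higher and 2.55% lower.

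The fourth most abundant member was the only one whose listed *Arabidopsis* match was a MYB21-like gene. These genes act downstream of jasmonate and gibberellin in the growth of petals, stamen filaments and the style region of the pistil. This gene, GRMZM2G143328, measured 132 FPKM in *ifc* and 114 FPKM in WT, a 1.17-fold difference. GRMZM2G431156, matched to the MYB4-like gene MYB6, followed at 80.0 FPKM in *ifc* and 68.1 FPKM in WT. GRMZM2G001875, matched to RAX2, a regulator of axillary meristem formation, was the tenth at 24.8 FPKM in *ifc* and 21.03 FPKM in WT. The other members of the top 10 were CDC5 and 3 genes whose match had no symbol, and none of those 4 differed by more than 1.04-fold.

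Over the 57 members above 2 FPKM, 5 (8.77%) were called higher in *ifc* and 1 (1.75%) was called lower. The same rule called 4.13% of the 21093 rows of the table above 2 FPKM higher in *ifc* and 2.55% lower. Under equal totals without the extreme row, the MYB counts were 3 higher (5.26%) and 1 lower, against 3.57% and 3.21% of the table's rows, and with that row kept they were 56 and 0, against 96.8% and 0.261%. Over the 1091 such rows with any transcription factor family, under the authors' scaling, 6.32% were called higher and 4.12% lower. The share of MYBs called higher was thus above that of the whole table but rests on 5 genes. Among these, GRMZM2G087955 passed the 2 FPKM minimum only through its *ifc* value. Another large family, bHLH, gave 9.09% from 7 of 77 rows. For MYB_related these shares were 7.14% higher and 3.57% lower of 56 rows. G2-like factors, which carry a single MYB-type repeat, went the other way under the authors' scaling, with 0 of 24 rows called higher and 5 called lower. These shares are given side by side without a test, since single genes are not replicates.

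Regardless of size, 32 of the 57 members had the higher value in *ifc* and 25 the lower one. The 32 include GRMZM2G087955 and GRMZM2G395672, which passed the 2 FPKM minimum only through their *ifc* values. Scaling to equal totals turned these 32 into 28 without the extreme row and into 57 with it. The share with the higher value was 56.1% for MYB, against 45.9% over all rows and 40.3% over all transcription factor rows. The median log2 ratio of the MYBs, with 1 FPKM added to each value, was 0.02 (-0.01 after scaling to equal totals without the one extreme row and 1.05 with it), against -0.02 over all rows and -0.05 over all transcription factor rows. The centre of the family was therefore near equality. A ratio under 1.2-fold was found for 39 of the 57 members (68.4%), which is close to the 71.2% over all rows above 2 FPKM.

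**Figure D2:**
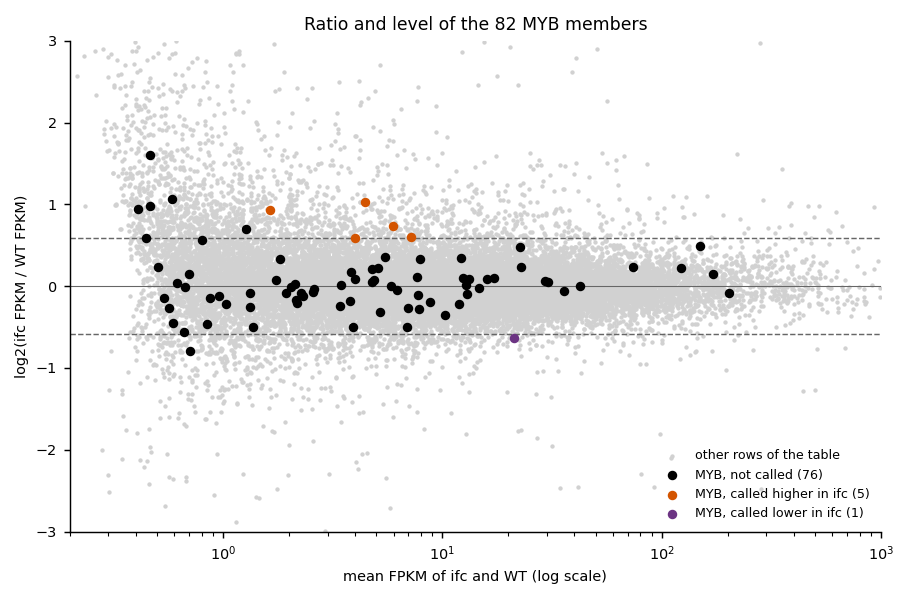
log2 ratio of *ifc* over WT FPKM against the mean FPKM (log axis) for the 82 members and, in grey, the other rows of the table; dashed lines mark 1.5-fold, and 167 rows of the table at 0 or beyond the axes are not drawn. The 5 members called higher (orange) and the 1 called lower (purple) lie between a mean of 1.64 and 21.2 FPKM, and the ratios of uncalled members widen toward low levels; the signs are those of the authors' scaling, and equal totals with the extreme row kept would put all members above 0.

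The member with the largest ratio among those called was GRMZM2G147346, matched to MYB15, a regulator of defence lignin and of cold responses. It measured 5.98 FPKM in *ifc* and 2.93 FPKM in WT, a log2 ratio of 1.03 and the only called ratio above 2-fold. The gene is annotated on the plus strand of chromosome 1, chr1:231339379-231341822 in B73 RefGen_v3, the build of the table. RefSeq lists it under the maize name MYB121. A second gene with the same match, AC206901.3_FG005 on chromosome 10, was low in both phenotypes, at 1.58 FPKM in *ifc* and 0.973 FPKM in WT.

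GRMZM2G087955, matched to MYB70, measured 2.15 FPKM in *ifc* and 1.13 FPKM in WT, a log2 ratio of 0.93. It lies at chr2:164459323-164461196 on the plus strand. It had the lowest level of all called members and passed the 2 FPKM minimum only through its *ifc* value.

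GRMZM2G160840, matched to MYB78, measured 7.44 FPKM in *ifc* and 4.48 FPKM in WT, a log2 ratio of 0.73. It lies at chr3:127632799-127634389 on the minus strand and is described as an R2R3-MYB domain protein. MYB78 belongs to the group of MYB2 and MYB108, known for roles in stress responses and, for MYB108, in anther maturation downstream of MYB21. The other 2 expressed members of this group, both matched to MYB112, stayed within 1.13-fold.

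AC217264.3_FG005, matched to MYB101, measured 8.67 FPKM in *ifc* and 5.70 FPKM in WT, a log2 ratio of 0.60. It lies at chr1:246090025-246092492 on the plus strand. MYB101 is a GAMYB-like factor, a group that acts in gibberellin signalling and in reproductive tissue and is a target of the microRNA miR159. GRMZM2G050550, matched to MYB44, measured 4.82 FPKM in *ifc* and 3.20 FPKM in WT, a log2 ratio of 0.59. It lies at chr7:51486944-51489455 on the plus strand and was the called member closest to the fold limit from inside. Neither gene was still called at equal totals without the extreme row, with log2 ratios of 0.56 for AC217264.3_FG005 and 0.55 for GRMZM2G050550.

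The only member called lower was GRMZM2G088783, matched to MYB26. It measured 16.7 FPKM in *ifc* and 25.8 FPKM in WT, a log2 ratio of -0.63. The gene lies at chr3:204223729-204225807 on the minus strand. MYB26 is required for secondary thickening of the anther endothecium and thus for anther opening. With a mean of 21.2 FPKM it was the most abundant of the called members and ranked twelfth in the family.

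The members nearest to the fold limit from outside lay on both sides of equality. On the *ifc* side this was GRMZM2G145444, the abundant MYB44 match with its 1.41-fold ratio. GRMZM2G032655, matched to MYB106 (NOK), a regulator of trichome branching and cuticle formation, measured 26.4 FPKM in *ifc* and 18.99 FPKM in WT, or 1.39-fold. On the other side, GRMZM2G305856, matched to MYB48, measured 3.22 FPKM in *ifc* and 4.57 FPKM in WT, or 1.42-fold toward WT. GRMZM2G079123, matched to MYB16, measured 5.71 FPKM in *ifc* and 8.05 FPKM in WT, or 1.41-fold toward WT. MYB16 and MYB106 are close relatives that promote conical epidermal cells and the cuticle. Their matches in the family MYB differed in opposite directions. A second MYB106 match in the family MYB_related, GRMZM2G001223, was lower in *ifc* like the MYB16 match, at 24.5 FPKM in *ifc* and 27.8 FPKM in WT.

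The members were then grouped by the subgroup of their *Arabidopsis* match. All 5 expressed GAMYB-like members had the higher value in *ifc*, from 1.06-fold to 1.52-fold. The highest was GRMZM2G093789, matched to MYB101, at 13.6 FPKM in *ifc* and 12.8 FPKM in WT. GRMZM2G139688, matched to MYB65, measured 8.78 FPKM in *ifc* and 6.95 FPKM in WT, and GRMZM2G423833, matched to MYB33, measured 5.11 and 4.42 FPKM. The sixth member, GRMZM2G167088, was under the minimum and ran the other way, at 1.88 FPKM in *ifc* and 2.00 FPKM in WT.

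In the MYB44-like group, 4 of 5 members had the higher value in *ifc* and 2 were called higher, as were 4.13% of all rows. Of these 2, GRMZM2G087955 passed the minimum through its *ifc* value alone, and GRMZM2G050550 lost its call at equal totals without the extreme row. The exception was GRMZM5G803308, the most abundant MYB. The summed level of the group was 559 FPKM in *ifc* and 500.1 FPKM in WT, so the 2 called members, both under 5 FPKM, added little to it.

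The secondary wall group was the largest, with 17 members, of which 10 were above 2 FPKM. Many factors on this list, such as MYB46 and MYB61, switch on cellulose, xylan or lignin genes, and MYB46 acts below NAC master regulators. Others have different places or roles: MYB26 acts upstream of the NAC genes NST1 and NST2 in the anther, and MYB18 and MYB19 are related to light signalling. Apart from the MYB26 match, none of the 10 was called, where 4.13% of all rows above 2 FPKM were called higher and 2.55% lower. The other 9 had log2 ratios from -0.32 to 0.34. In all, 6 of the 10 were lower in *ifc* and 4 higher, and their median log2 ratio was -0.10. GRMZM2G170049, matched to MYB18, was at the upper end, at 13.5 FPKM in *ifc* and 10.7 FPKM in WT. The match to the master switch MYB46, GRMZM2G052606, was at 2.57 FPKM in *ifc* and 2.63 FPKM in WT. One low row of this group, GRMZM2G173633, entered it through the symbol MYB103, but its match is the tapetum regulator also named MYB80 and MS188, and it was at 0.670 FPKM in *ifc* and 0.674 FPKM in WT.

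The MYB4-like repressors, which restrain phenylpropanoid genes, were all expressed, and 0 of 6 were called. Over all rows above 2 FPKM only 4.13% were called higher and 2.55% lower. GRMZM2G050305, known in maize as ZmMYB31, a repressor of lignin genes, measured 17.8 FPKM in *ifc* and 16.7 FPKM in WT. The 4 more abundant members of the group had the higher value in *ifc* and the 2 least abundant the lower one. The single flavonoid MYB among the members, GRMZM2G022686, matched to MYB12, an activator of flavonol synthesis, was at 4.13 FPKM in *ifc* and 3.87 FPKM in WT.

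The epidermal cell fate group had 4 expressed members, 2 on each side of equality. Besides the MYB106 and MYB16 matches it held GRMZM2G040924, matched to MYB17, at 10.99 FPKM in *ifc* and 12.8 FPKM in WT. The other expressed member, GRMZM2G395672, matched to MYB5, was at 2.03 FPKM in *ifc* and 1.62 FPKM in WT. It passed the minimum only through its *ifc* value. The MYB59-like group was the only one with more than 1 expressed member in which all were lower in *ifc*, a direction that turned only when totals were equalised with the extreme row kept. Its leading member, GRMZM2G130149, matched to MYB59, a regulator of root growth and of nutrient and stress responses, measured 9.08 FPKM in *ifc* and 11.5 FPKM in WT. With GRMZM2G305856 it made 2 expressed members, and the 2 members under the minimum were lower in *ifc* too.

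Cuticular wax regulators of the MYB30 and MYB96 group stayed within 1.08-fold in all 4 expressed members. The highest, GRMZM2G056407, matched to MYB94, was at 7.44 FPKM in *ifc* and 8.02 FPKM in WT. GRMZM2G312419, matched to LOF2, a factor of organ boundaries, measured 6.13 FPKM in *ifc* and 4.78 FPKM in WT, a 1.28-fold ratio. A second LOF2 match, GRMZM2G111731, was at 2.21 FPKM in *ifc* and 2.34 FPKM in WT. In *Arabidopsis* the LOF genes keep neighbouring organs apart. Of the 3 matches in the family MYB, 2 were expressed and neither was called. Over all rows above 2 FPKM, 4.13% were called higher and 2.55% lower. A LOF2 match in the family MYB_related, GRMZM2G428555, was more abundant and nearly level, at 45.6 FPKM in *ifc* and 46.3 FPKM in WT.

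Members with roles in the cell cycle were nearly level. GRMZM2G470307, matched to MYB3R-1, measured 12.5 FPKM in *ifc* and 13.3 FPKM in WT. GRMZM2G081919, matched to MYB3R-5, measured 14.6 and 14.8 FPKM, and GRMZM2G073836, matched to MYB3R-4, measured 3.57 and 4.05 FPKM. MYB3R factors activate or repress genes of the G2 and M phases. The 3 matches were each lower in *ifc*, by at most 1.13-fold, and higher once totals were equalised with the extreme row kept, and the MYB3R-5 match also turned to higher when ratios were divided by their median over all rows above 2 FPKM. AC203535.4_FG001, the CDC5 match, was at 30.9 FPKM in *ifc* and 29.7 FPKM in WT. GRMZM2G064630, matched to FLP, which limits divisions in the stomatal lineage, was at 6.13 FPKM in *ifc* and 6.32 FPKM in WT. Of the 6 members in no listed subgroup, the MYB4R1 match GRMZM2G051793 was at 2.22 FPKM in *ifc* and 2.40 FPKM in WT. The most abundant of the 6, GRMZM2G149958, had 42.2 FPKM in both.

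**Figure D3:**
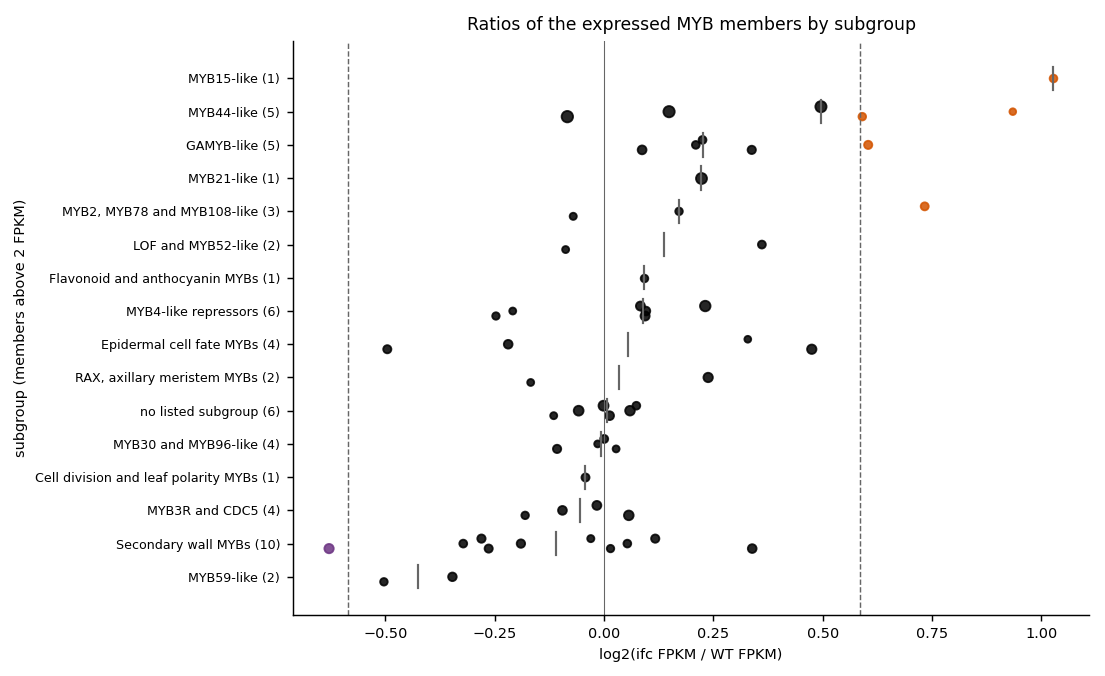
log2 ratio of *ifc* over WT FPKM for the 57 members above 2 FPKM, by subgroup of the *Arabidopsis* match; each point is a gene, its size follows the mean FPKM, its height within a line only separates points, the short bar is the median of the points, and dashed lines mark 1.5-fold. The 5 expressed GAMYB-like members lie to the right of 0 and the 2 MYB59-like members to the left, while most other groups straddle 0; with totals equalised and the extreme row kept, all points would lie to the right of 0.

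The groups with no member above 2 FPKM were the lignin-related MYB58 and MYB63 group (3 members), the suberin and stress group (3 members) and the MYB98 group of the female gametophyte (1 member). Their leading members were GRMZM2G097636, matched to MYB63, at 1.21 FPKM in *ifc* and 1.44 FPKM in WT, GRMZM2G159547, matched to MYB93, at 0.955 and 0.645 FPKM, and GRMZM2G150680, matched to MYB98, a synergid regulator, at 0.537 and 0.357 FPKM. Of all 25 members at or under the minimum, 11 were higher in *ifc* and 14 lower.

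The widest ratios were found at the lowest levels. The median absolute log2 ratio was 0.33 for the 27 members with a mean under 2 FPKM, 0.18 for the 33 between 2 and 10 FPKM, 0.09 for the 18 between 10 and 100 FPKM, and 0.18 again for the 4 members at 100 FPKM or more. Over all rows of the table above 0 in both phenotypes it was 0.36, 0.18, 0.13 and 0.16 in the same ranges, so the width fell with level only up to 100 FPKM. Of the 27 members with a mean under 2 FPKM, 8 had a ratio past the fold limit: the called gene GRMZM2G087955 and 7 under the minimum, among them GRMZM2G134279, matched to MYB112, with 0.696 FPKM in *ifc* and 0.229 FPKM in WT. The widest ratio of the family, 3.04-fold toward *ifc*, was therefore found in one of its least expressed members. The share of all rows past the fold limit at this low level is not given. The shares given elsewhere are for rows above 2 FPKM, so these 8 members cannot be set against them.

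Many members shared an *Arabidopsis* match. In all, 20 matches were shared by at least 2 members and covered 51 of the 82, and 11 of these matches had at least 2 members above the minimum. Such pairs and sets differed more in level than in ratio. The highest member exceeded the lowest by a median of 7.95-fold over these 11 matches. For MYB70 the mean was 171 FPKM in GRMZM2G078820 and 1.64 FPKM in GRMZM2G087955, a 105-fold gap, and only the low gene was called. For MYB44 the gap was 37.2-fold, between GRMZM2G145444 and GRMZM2G050550, yet both had nearly the same log2 ratio of 0.50 and 0.59. In 6 of the 11 matches all expressed members lay on one side of equality, and in 5 they lay on both sides. A called member occurred in 3 matches, MYB70, MYB44 and MYB101, and in 0 of these were all expressed members called. Over all rows above 2 FPKM only 4.13% were called higher and 2.55% lower.

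MYB101 had 4 maize members, of which GRMZM2G070523 was at 5.51 FPKM in *ifc* and 4.71 FPKM in WT. MYB61, a regulator of wall and stomatal aperture genes, also had 4, with GRMZM2G017520 at 8.23 FPKM in *ifc* and 9.39 FPKM in WT and GRMZM2G171781 at 4.61 and 5.76 FPKM. For MYB4, GRMZM2G160838 was at 12.9 FPKM in *ifc* and 12.1 FPKM in WT, GRMZM2G041415 at 3.12 and 3.70 FPKM, and GRMZM2G089244 at 2.01 and 2.33 FPKM. Within the family MYB the abundant and the rare MYB4 matches thus lay on different sides of equality. MYB4 matches in the family MYB_related did not keep to this split. GRMZM2G124715 was at 25.6 FPKM in *ifc* and 19.4 FPKM in WT, but GRMZM2G077789 at 15.2 and 15.9 FPKM. The rarer GRMZM2G000818 was at 5.35 and 5.06 FPKM, and GRMZM2G084583 at 0.711 and 0.443 FPKM. The second MYB6 match, GRMZM2G405094, was at 16.5 FPKM in *ifc* and 15.6 FPKM in WT. For MYB42, GRMZM2G104551 was at 7.99 FPKM in *ifc* and 7.37 FPKM in WT, and GRMZM2G037650 at 3.46 and 3.42 FPKM. The 2 MYB30 matches were level, AC165178.2_FG004 with 5.84 FPKM in both phenotypes and GRMZM2G045748 with 2.04 FPKM in *ifc* and 2.06 FPKM in WT. For MYB112, GRMZM2G143046 was at 4.07 FPKM in *ifc* and 3.61 FPKM in WT, and GRMZM2G070849 at 2.52 and 2.64 FPKM. The match AT2G38090, which has no symbol, was shared by GRMZM2G079458 at 35.0 FPKM in *ifc* and 36.4 FPKM in WT, GRMZM2G020772 at 12.8 and 12.7 FPKM, and GRMZM2G056986 at 4.999 and 4.75 FPKM. Reads of near-identical copies can be divided between them in the authors' counting, so the split of a level within such a set is less certain than its sum.

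**Figure D4:**
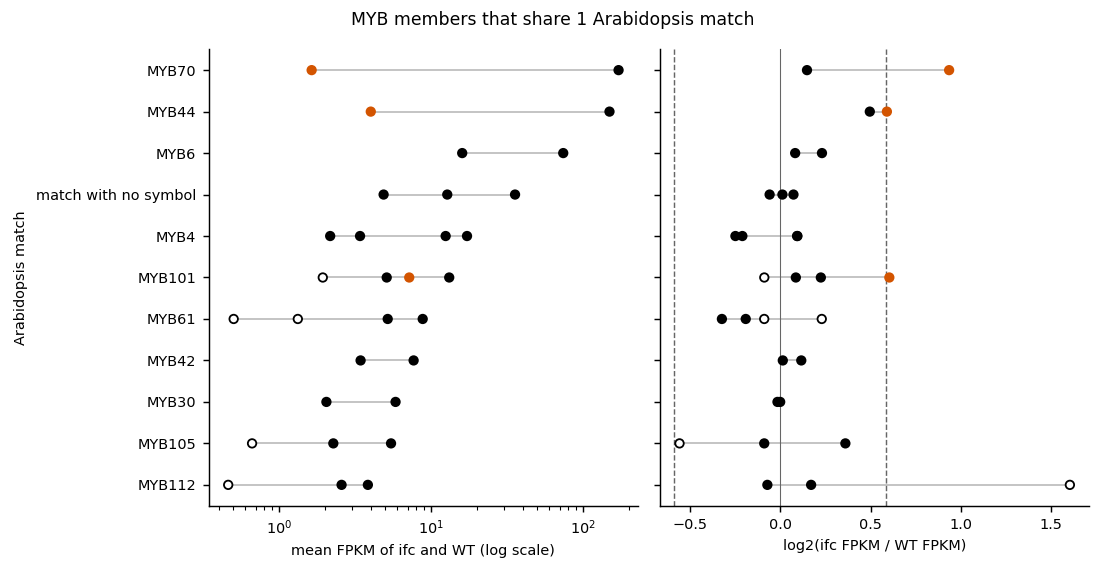
Mean FPKM (left, log axis) and log2 ratio of *ifc* over WT FPKM (right) of members that share an *Arabidopsis* match, for the 11 matches with at least 2 members above 2 FPKM; filled points are members above 2 FPKM, open points members at or under it, and orange points called members. Levels within the MYB70 match differ 105-fold, and dashed lines mark 1.5-fold.

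Members also lay next to each other in the genome. In 6 pairs the gap was under 200 kb, and 3 of these pairs shared a match. The closest were GRMZM2G097636 and GRMZM2G097638 on chromosome 10, both matched to MYB63, 1.59 kb apart on the same strand and both at or under 1.44 FPKM. The 2 MYB48 matches on chromosome 6 lay 62.3 kb apart, and the GAMYB-like genes GRMZM2G423833 and GRMZM2G093789 lay 94.7 kb apart on the same chromosome. In 4 of the 6 pairs both genes lay on the same side of equality, and 0 pairs held a called member. Calls were rare over all rows above 2 FPKM as well, at 4.13% higher and 2.55% lower.

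Annotated hormone responses fell on the same few members. The terms for jasmonic acid and for salicylic acid were each given to 6 members, the same 6 in both, and those for gibberellin and abscisic acid to 4 of these. The called genes GRMZM2G050550 and GRMZM2G087955 carried all 4 terms. So did GRMZM2G041415 and GRMZM2G089244, which were lower in *ifc* and not called. Over all rows above 2 FPKM, 4.13% were called higher and 2.55% lower, and no annotation was tested against these shares. Of the 6 members, 3 were higher in *ifc*.

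Genes that act with MYBs, and genes of processes in which MYBs act, were counted from lists matched by *Arabidopsis* symbol. For the partners of MYBs in the MYB, bHLH and WD40 complex, the TTG1 match GRMZM2G058292 was at 5.13 FPKM in *ifc* and 6.83 FPKM in WT, and the TT8 match GRMZM2G042733 at 1.21 and 0.430 FPKM. Of 9 expressed rows for secondary wall NACs and wall synthases, 7 were lower in *ifc*, 1 was called higher and 0 were called lower. The highest was an IRX10 match, GRMZM2G056702, a xylan synthesis gene, at 91.9 FPKM in *ifc* and 114 FPKM in WT. Of 38 expressed rows for lignin and flavonoid enzymes, 25 were higher in *ifc*, 4 were called higher and 1 was called lower. The highest were a chalcone isomerase match, GRMZM2G155329, at 182 FPKM in *ifc* and 189 FPKM in WT, and a PAL1 match, GRMZM2G074604, which codes for the entry enzyme of phenylpropanoid synthesis, at 177 and 163 FPKM. A further 6 rows were found by a symbol that another gene shares, such as the RNA-binding protein GRP7 under CCR2, and were left out of these counts. Of 23 expressed rows of G2 and M phase genes, 16 were higher in *ifc*, with 1 called in each direction. Whether these rows are targets of MYB3R factors in maize was not tested. Over all rows 45.9% were higher and 54.1% lower, with 4.13% called higher and 2.55% called lower, and no list was tested against these shares. The median log2 ratio was -0.09 for the wall list, 0.06 for the enzyme list and 0.05 for the cell cycle list, against -0.02 over all rows.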

How the data were processed

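RNA from *ifc* and WT ovaries (3 libraries each) was sequenced by the authors, who aligned the reads to B73 RefGen_v3 with TopHat2, kept exonic reads with BEDTools and pooled the triplicates of each phenotype. The deposited table gives the authors' pooled FPKM, 1 value per gene and phenotype, made by Cufflinks and Cuffdiff with multi-read and fragment bias correction and quartile normalization. Its columns of the authors' own comparison (fold change, its log2, direction, p-value, q-value and significance) were not used. Read counts per gene do not come with the table, so the number of fragments behind each value is unknown and no counting interval is given. The paper lists mapped reads per library, and each WT library had more than the *ifc* library of the same replicate number.

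Ratios were computed here as *ifc* FPKM divided by WT FPKM. A row was called at a fold above 1.5 with an FPKM above 2 in at least 1 phenotype, the size limits of the authors' methods, and medians used log2 of FPKM plus 1. No test was run on the data. The counting rules were tested on simulated data. Named were all called members, the 10 highest, the highest of each subgroup, all MYB3R and CDC5 matches, members sharing a match where at least 2 were expressed, and those next to the fold limit. AC206901.3_FG005, GRMZM2G139688, GRMZM2G423833, GRMZM2G167088, GRMZM2G170049, GRMZM2G052606, GRMZM2G173633, GRMZM2G134279, GRMZM2G097638, GRMZM2G051793 and GRMZM2G395672 were added after their values were seen. The AMS and INO matches among the markers were also named after their values were seen. So were the MYB_related rows GRMZM2G428555, GRMZM2G001223, GRMZM2G124715, GRMZM2G077789, GRMZM2G000818 and GRMZM2G084583. Subgroups followed the first listed *Arabidopsis* symbol. Members and lists were chosen with earlier results of these data known. Of the 82 identifiers, 58 were found in RefSeq (Zm-B73-REFERENCE-NAM-5.0), used for maize names only. The alternatives were another fold limit, FPKM minimum, pseudocount, scaling and choice of rows. Python 3.11.15, numpy 2.4.6, pandas 2.3.3 and matplotlib 3.10.9 were used.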

Additional observations from a re-analysis of the deposited data

How the results depend on the processing

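No paired analysis was possible because the table analysed here holds 1 pooled value per phenotype, and for the same reason no library was left out; values per library were not used here. Against 5 members called higher and 1 called lower, a fold limit of 2 gave 1 and 0, and a limit of 1.2 gave 11 and 7. Without an FPKM minimum the counts were 11 and 2 of 82 members. With an FPKM above 10 in at least 1 phenotype, 0 of 22 members were called higher, and 14 had the higher value in *ifc* against 32 of 57. Shares over all rows are not given for these fold limits and minimums. The counts therefore show how the MYB numbers move and cannot be set against the table. Setting both phenotypes to the same total FPKM gave 56 called higher, 0 called lower, 57 with the higher value in *ifc* and a median log2 ratio of 1.05, and moved GRMZM2G088783 from -0.63 to 0.50. This follows from the construction of that setting, since 1 row holds 55.6% of the summed WT values. Leaving that row out before the same step gave 3 called higher, and the median went from 0.02 to -0.01. The other alternatives for these 4 results, 29 values in all, stayed within 1.5 times of the counts or within 0.1 of the median. Among them, the restriction to numbered MYB matches was chosen after the data were seen, as was the removal of rows under a shared symbol from the pathway lists. With those rows kept, the lignin and flavonoid list had 5 called higher of 44 expressed rows.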

Other observations

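The family label leaves out some MYBs. In the family MYB_related, 14 rows had a match with a numbered MYB symbol, 11 of them above 2 FPKM. Of these 11, 1 was called higher in *ifc* and 0 were called lower, against 4.13% and 2.55% of all rows above 2 FPKM. The called row was GRMZM2G051256 on chromosome 3, matched to the flavonol regulator MYB12 and described as the R2R3 factor MYB-IF35, at 24.9 FPKM in *ifc* and 11.2 FPKM in WT, a 2.23-fold ratio that exceeded those of all called members of the family MYB. It was named after its value was seen.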
